A study of Rattus norvegicus with 24 samples.

Results

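The probe sets for 6 glutathione S-transferase genes, Gsta4, Gstm1, Gstm2, Gstp1, Gstt1 and Gstt2, were followed in rat ventricles after induction of diabetes. Members were all probe sets to which the platform annotation gives 1 of these symbols, 12 of the 8740 on the array that are not array controls, and none of the 12 carries a further symbol. Male Wistar rats of 150 g from Harlan received 65 mg/kg streptozotocin, which kills pancreatic beta cells and so gives a model of type 1 diabetes, or citrate buffer alone. Ventricles were taken 3, 28 and 42 days later, with 4 diabetic and 4 control animals at each day, and total RNA of each animal went onto its own RG-U34A array. The submitters describe day 3 as a baseline of early changes, day 28 as marked by diastolic dysfunction and day 42 by systolic dysfunction besides.

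Glutathione S-transferases join the tripeptide glutathione to electrophilic molecules, which makes these more soluble and ready for export. In the heart their substrates include aldehydes formed when membrane lipids are oxidised. The cytosolic enzymes work as dimers and are grouped into classes by sequence. Gsta4 belongs to the alpha class and is known for its activity on hydroxynonenal, a product of lipid peroxidation. Gstm1 and Gstm2 belong to the mu class, Gstp1 is the pi enzyme, known in rat liver as a marker of preneoplastic foci, and Gstt1 and Gstt2 belong to the theta class. Several of these genes are textbook targets of the transcription factor Nrf2, which binds antioxidant response elements.

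Promoters are shown for the 4 members that RefSeq's table for the GRCr8 build lists, so that their windows could be looked at for an antioxidant response element. Each run covers 250 bases before and 50 bases after the gene's start, read in the direction of the gene. Capitals mark a match to the core of that element, TGACNNNGC on either strand.
Gstp1: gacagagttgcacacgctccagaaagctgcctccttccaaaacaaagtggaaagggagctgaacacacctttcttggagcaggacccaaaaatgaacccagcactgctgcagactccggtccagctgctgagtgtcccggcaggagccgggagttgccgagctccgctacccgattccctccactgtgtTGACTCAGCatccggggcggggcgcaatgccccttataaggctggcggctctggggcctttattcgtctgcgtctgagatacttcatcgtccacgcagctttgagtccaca
Gstm1: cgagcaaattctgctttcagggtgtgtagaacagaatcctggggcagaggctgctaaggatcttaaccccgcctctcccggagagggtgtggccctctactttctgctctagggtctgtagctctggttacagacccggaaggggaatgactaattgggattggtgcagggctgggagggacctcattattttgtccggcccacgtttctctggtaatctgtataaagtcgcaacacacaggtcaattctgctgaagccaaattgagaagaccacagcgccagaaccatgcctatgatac
Gstm2: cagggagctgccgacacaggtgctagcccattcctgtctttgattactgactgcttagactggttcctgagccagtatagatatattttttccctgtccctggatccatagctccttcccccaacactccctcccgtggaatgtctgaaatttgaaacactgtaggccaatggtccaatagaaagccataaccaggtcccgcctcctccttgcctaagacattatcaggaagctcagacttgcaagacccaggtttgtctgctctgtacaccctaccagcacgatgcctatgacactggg
Gsta4: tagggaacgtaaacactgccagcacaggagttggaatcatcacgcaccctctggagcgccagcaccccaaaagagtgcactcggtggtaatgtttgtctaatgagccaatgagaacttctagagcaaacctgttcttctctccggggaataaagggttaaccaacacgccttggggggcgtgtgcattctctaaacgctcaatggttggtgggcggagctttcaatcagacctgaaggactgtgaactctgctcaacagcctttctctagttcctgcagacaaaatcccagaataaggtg
The Gstp1 window lies at chr1:210769656-210769955 on the minus strand, the Gstm1 window at chr2:198343334-198343633 on the minus strand, the Gstm2 window at chr2:198316868-198317167 on the minus strand and the Gsta4 window at chr8:87947015-87947314 on the plus strand. Among these 4 windows the core was found in Gstp1, as TGACTCAGC with its first base 61 bases before the start, where it overlaps a match to TGANTCA, the core of an AP-1 site. The core occurs in 12.1% of all 33469 promoter windows and TGANTCA in 7.33%, so 1 match among 4 windows is a description and not a site. The TATA box letters TATAAA or their reverse complement, present in 14.2% of windows, were found in Gstm1 with their first base 29 bases before the start. In the order of glutathione S-transferase genes on chromosome 2, Gstm2 and Gstm1 are next to each other.

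The 12 probe sets are named by gene, with letters where a gene has several. Gsta4 A is X62660mRNA_g_at and Gsta4 B is X62660mRNA_at. Gstm1 A, B and C are X04229cds_s_at, J02810mRNA_s_at and H32189_s_at. Gstm2 A and B are J02592_s_at and J03914cds_s_at. Gstp1 A and B are rc_AI012589_s_at and X02904cds_s_at. Gstt2 A and B are rc_AI138143_at and D10026_s_at, and Gstt1 is X67654_at. The identifiers of 8 of the 12 end in _s_at, which marks probes that can match several transcripts of a family, and these include every probe set of Gstm1, Gstm2 and Gstp1 and 1 of Gstt2, so transcripts of close relatives may contribute to them. Levels of different probe sets are not set against each other, since each has its own binding strength.

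Values are MAS 5 signals in intensity units, scaled by the submitters so that the arrays share a mean. Blood glucose was 500 to 769 mg/dL in diabetic animals, against 103 to 156 mg/dL in controls. At day 42 the diabetic animals weighed 112 to 126 g, against 413 to 472 g in controls. The hexokinase 3' to 5' ratio, a measure of RNA and labelling quality, ran from 2.60 to 3.90 in diabetic and from 3.13 to 5.07 in control arrays of day 42, and was 1.43 to 2.77 over the arrays of days 3 and 28. Of 7 cardiomyocyte markers on the array, 0 changed at any day, none lay below the signal floor in all arrays, and their summed signal per array was 334813 to 637299. Whole ventricle was measured, so fewer cells of a type and less RNA per cell cannot be told apart.

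Most member probe sets rose in diabetic relative to control ventricles at day 42, 1 did at day 28 and none passed the test at day 3. Of the 12 probe sets 11 passed the filter on low signals, and the probe set of Gstt1 did not. At day 3, 0 of the 11 passed an adjusted p under 0.05 in limma, where 0.934% of all 5244 probe sets did. At day 28, 1 of 11 rose (2.1% of all probe sets passed, 1.3% as higher). At day 42, 9 of 11 rose and 0 fell, while 11.4% of all probe sets passed and 5.8% passed as higher. The 9 come from 4 genes, Gsta4, Gstm1, Gstp1 and Gstt2. The median log2 change of the 11 was 0.38 at day 3, 0.59 at day 28 and 0.99 at day 42, against -0.04, -0.06 and -0.03 over all probe sets tested. All 4 diabetic arrays lay above all 4 control arrays for 2, 3 and 9 of the 11 probe sets at days 3, 28 and 42, a pattern that 3.05%, 2.75% and 9.0% of all probe sets showed. The members were chosen with earlier results of these data known, so these shares are set beside theirs as a description and not a test.

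**Figure D1:**
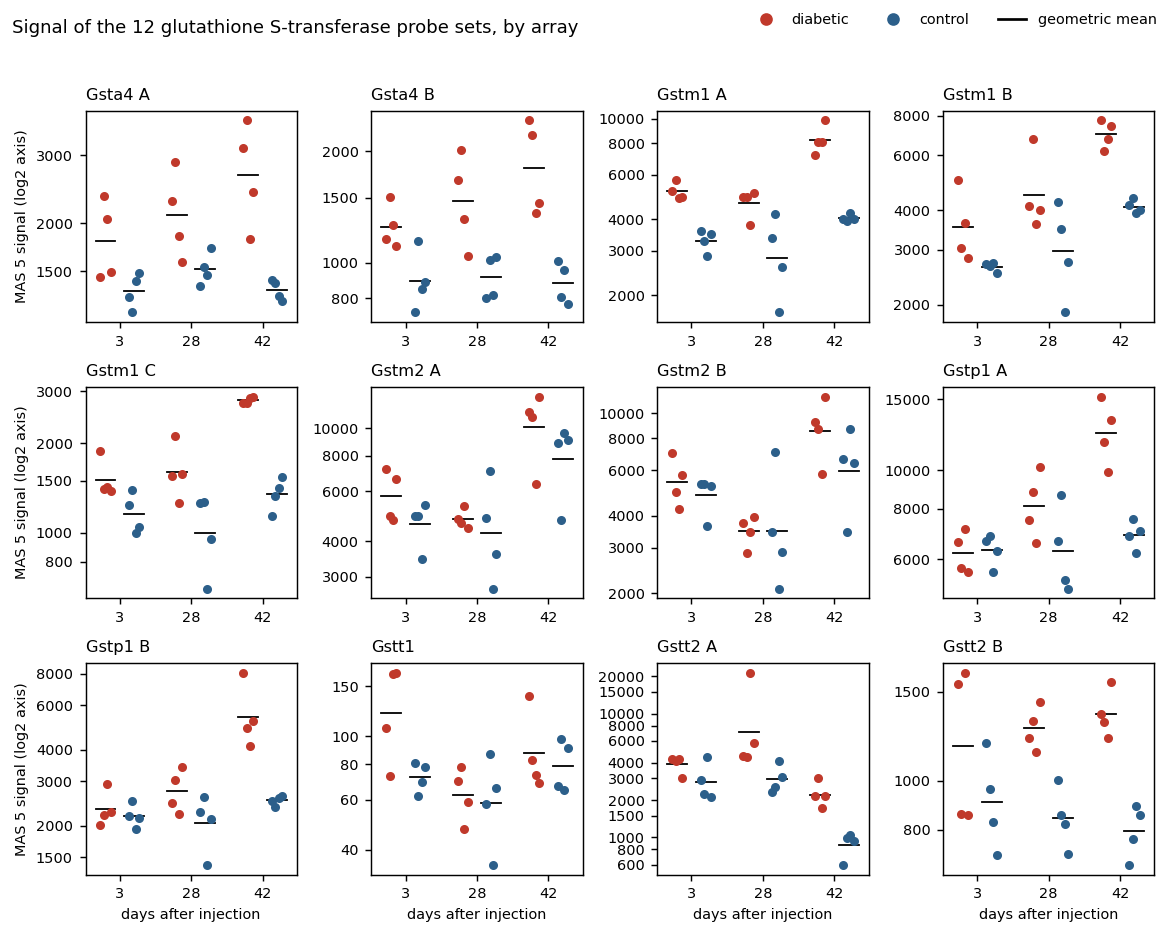
MAS 5 signal (log2 axis, intensity units) of each of the 12 probe sets by days after injection, with 1 point per array, diabetic arrays left of control arrays at each day, and a bar at the geometric mean of 4 arrays. At day 42 the diabetic points lie above all control points for Gsta4, Gstm1, Gstp1 and Gstt2, and the points of Gstm2 and Gstt1 overlap.

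Gstm1, a main mu-class enzyme, had the 1 probe set past the threshold at day 28, a call that other settings moved to other members. Gstm1 A measured 5192.0, 5728.0, 4851.5 and 4904.7 in diabetic arrays of day 3, against 3598.9, 3274.9, 2847.5 and 3481.9 in control arrays. At day 28 it measured 4922.6, 4884.3, 3783.0 and 5088.1 in diabetic arrays and 3365.0, 4211.2, 1709.9 and 2584.8 in control arrays. Day 42 gave 7159.6, 8094.8, 8123.1 and 9875.5 in diabetic arrays, against 4014.7, 3948.2, 4253.7 and 3997.7 in controls. The groups were apart at days 3 and 42 and overlapped at day 28, where 1 control array reached into the diabetic range. The log2 change was 0.65 ± 0.18 at day 3 (SE, adjusted p = 0.0985), 0.72 ± 0.18 at day 28 (adjusted p = 0.0323) and 1.03 ± 0.18 at day 42 (adjusted p = 0.000293), a 2.04-fold rise at day 42. The call at day 28 was lost without diabetic replicate 1, 2 or 4 (0.69, 0.70 and 0.68) and without control replicate 3 or 4 (0.48 and 0.68), and with a block for scan day, fluidics station or chip lot (0.69, 0.74 and 0.67, adjusted p = 0.102, 0.123 and 0.0895). With the scan day or chip lot block, or without diabetic replicate 1 or 2, the 1 member called at day 28 was Gstt2 A, and without diabetic replicate 4 it was Gsta4 B (0.85, adjusted p = 0.0333).

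Gstm1 B gave 4994.3, 3040.7, 3639.7 and 2817.7 in diabetic and 2696.9, 2661.9, 2719.1 and 2519.3 in control arrays at day 3. At day 28 the signals were 4143.7, 6735.8, 3612.1 and 4019.6 in diabetic arrays, against 4266.6, 3494.3, 1892.6 and 2728.1 in controls, and at day 42 they were 7746.9, 6188.6, 6769.9 and 7407.8 against 4155.4, 4380.6, 3915.9 and 4014.8. The groups were apart at days 3 and 42, and the call was made at day 42, with a log2 change of 0.77 ± 0.21 (adjusted p = 0.0141), after 0.42 and 0.60 at days 3 and 28 (adjusted p = 0.505 and 0.159). Gstm1 C gave 1878.8, 1409.4, 1428.2 and 1383.6 in diabetic and 1242.4, 1397.6, 997.7 and 1049.2 in control arrays at day 3, with 1559.6, 2119.9, 1256.3 and 1577.2 against 1258.2, 1270.3, 649.7 and 953.3 at day 28. Its diabetic arrays of day 42 were nearly alike, at 2728.7, 2739.0, 2835.8 and 2874.1, and its controls gave 1136.5, 1329.6, 1410.7 and 1543.3. The groups overlapped at days 3 and 28 and were far apart at day 42, where the log2 change was 1.05 ± 0.19 (adjusted p = 0.000309). Its values of 0.38 at day 3 and 0.68 at day 28 had adjusted p-values of 0.504 and 0.0579. Control replicate 3 of day 28 was the lowest control array of its day in all 3 Gstm1 probe sets, and its beta-actin 3' to 5' ratio was 1.77, the highest among the day 28 controls.

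Gstm2, the neighbouring mu-class gene, passed the test at no day. Gstm2 A ranged from 6352.2 to 12912.5 in diabetic and from 4735.2 to 9616.3 in control arrays at day 42, and Gstm2 B from 5815.9 to 11618.3 and from 3455.1 to 8655.3. Both groups were wide and overlapped, with log2 changes of 0.37 ± 0.26 and 0.52 ± 0.29 (adjusted p = 0.457 and 0.307). At day 3 the changes were 0.33 and 0.16 (adjusted p = 0.807 and 0.947) and at day 28 they were 0.16 and -0.002 (adjusted p = 0.852 and 0.998). A missed threshold does not show that Gstm2 was unchanged, and the difference between Gstm1 and Gstm2 was not tested.

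Gstp1, the pi-class enzyme, differed from its controls by under 0.1 on the log2 scale at day 3 and rose at day 42. Gstp1 A measured 6626.0, 5707.1, 7131.5 and 5559.3 in diabetic arrays of day 3, against 6658.1, 6828.2, 5580.0 and 6284.3 in controls. At day 28 the signals were 7516.9, 8790.9, 6579.0 and 10160.5 in diabetic arrays and 6647.7, 8642.1, 5317.8 and 5062.1 in control arrays. By day 42 they stood at 15242.8, 11713.6, 9875.2 and 13291.4 in diabetic arrays, against 6829.1, 7533.0, 6205.6 and 7050.8 in controls. The groups were mixed at days 3 and 28 and apart at day 42. The log2 change was -0.02 ± 0.16 at day 3 (adjusted p = 0.983), 0.38 ± 0.16 at day 28 (adjusted p = 0.319) and 0.85 ± 0.16 at day 42 (adjusted p = 0.000695).

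Gstp1 B moved with it. Diabetic arrays gave 2026.0, 2217.0, 2930.1 and 2261.1 at day 3, against 2184.5, 2521.4, 1938.3 and 2151.3 in controls, and 2458.6, 3026.5, 2232.0 and 3416.3 at day 28, against 2261.5, 2611.1, 1401.1 and 2122.5. At day 42 they gave 8074.9, 4877.0, 4140.5 and 5223.7, against 2513.5, 2373.7, 2581.9 and 2631.5. The day 42 groups were apart, with 1 diabetic array well above the other 3, and the rise was 2.14-fold, a log2 change of 1.10 ± 0.19 (adjusted p = 0.000263), after 0.09 and 0.42 at days 3 and 28 (adjusted p = 0.958 and 0.363). Gstp1 A was the only member probe set whose diabetic effect differed between days. The effect at day 42 exceeded that at day 3 by 0.87 ± 0.23 on the log2 scale (adjusted p = 0.0498), and Gstp1 B gave 1.00 ± 0.27 (adjusted p = 0.0593), where 1.87% of all probe sets passed, 0.572% as higher. That call was at the threshold and was lost when any 1 of 14 of the 16 arrays was left out (all but diabetic replicate 3 of day 3 and of day 42), with values of 0.77 to 0.93 where it was lost, and under 7 of 14 other settings.

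Gsta4, the alpha-class enzyme of lipid aldehyde conjugation, rose at day 42 in both probe sets. Gsta4 A measured 1446.7, 2353.8, 2049.2 and 1493.5 in diabetic and 1287.6, 1174.0, 1417.6 and 1487.6 in control arrays at day 3. Day 28 gave 2283.6, 2884.6, 1847.1 and 1589.3 in diabetic arrays, against 1370.9, 1535.8, 1470.1 and 1721.5 in controls, and day 42 gave 3127.1, 3697.8, 1820.3 and 2415.6 against 1423.6, 1399.5, 1294.3 and 1254.6. The diabetic arrays were more spread than the controls at each day, and only at day 42 did all 4 lie above them. The log2 change was 0.43 ± 0.20 at day 3 (adjusted p = 0.471), 0.46 ± 0.20 at day 28 (adjusted p = 0.317) and 0.99 ± 0.20 at day 42 (adjusted p = 0.00107).

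Gsta4 B was measured by a second set of probes for the same transcript. It gave 1158.6, 1509.5, 1264.0 and 1106.0 in diabetic arrays of day 3, against 733.4, 1146.9, 849.3 and 888.6 in controls. For day 28 the signals were 1674.2, 2022.6, 1309.9 and 1039.7 in diabetic arrays and 802.8, 1019.1, 819.3 and 1038.6 in control arrays. At day 42 they were 2429.1, 2217.9, 1365.5 and 1449.5, against 1009.0, 805.3, 956.4 and 771.6. The groups touched at day 28, where the lowest diabetic array exceeded the highest control by about 1 unit, and were apart at day 42. Its log2 changes were 0.49 at day 3, 0.68 at day 28 and 1.04 ± 0.21 at day 42 (adjusted p = 0.385, 0.0943 and 0.000972). Diabetic replicates 1 and 2 were the higher arrays of day 42 in both Gsta4 probe sets.

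Gstt2, a theta-class enzyme, rose at day 42 in both probe sets, which otherwise followed different courses. Gstt2 B measured 1556.3, 859.1, 1636.4 and 857.5 in diabetic arrays of day 3, against 1187.0, 963.4, 827.7 and 713.9 in controls. At day 28 it gave 1213.2, 1314.6, 1141.8 and 1436.1 in diabetic and 1002.0, 857.2, 821.7 and 716.8 in control arrays, and at day 42 it gave 1357.5, 1306.7, 1217.3 and 1572.0 against 681.4, 765.7, 893.0 and 857.1. Groups overlapped at day 3 and were apart at days 28 and 42. Its log2 changes were 0.37, 0.59 and 0.77 ± 0.20 at days 3, 28 and 42 (adjusted p = 0.586, 0.143 and 0.00974).

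Gstt2 A measured 4285.2, 4136.8, 4305.6 and 3024.3 in diabetic and 2916.3, 2246.1, 4422.7 and 2103.6 in control arrays at day 3. At day 28 the diabetic arrays gave 4527.1, 4491.1, 21270.2 and 5750.1, against 2312.3, 2551.7, 4121.6 and 3048.2 in controls. Day 42 gave 2140.6, 3017.0, 1718.1 and 2150.3 in diabetic arrays and 599.1, 985.1, 1051.1 and 928.1 in control arrays. Replicate 3 was the highest array of its group at day 28 in diabetic and in control animals alike. The log2 change was 0.48 ± 0.35 at day 3 (adjusted p = 0.775), 1.27 ± 0.35 at day 28 (adjusted p = 0.0614) and 1.34 ± 0.35 at day 42 (adjusted p = 0.0118). The day 28 value passed with a block for scan day (1.48, adjusted p = 0.0384), chip lot (1.55, adjusted p = 0.0146) or replicate (1.27, adjusted p = 0.0294), and without diabetic replicate 1 or 2 (1.48 each, adjusted p = 0.037 and 0.0344). Without the diabetic array at 21270.2 it was 0.74 (adjusted p = 0.181), and with a station block 1.22 (adjusted p = 0.239). The day 42 call was lost without diabetic replicate 2 (1.19, adjusted p = 0.0508) or control replicate 1 (1.16, adjusted p = 0.0529) of day 42.

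Those 2 arrays of day 28 stood apart in another measure too. The beta-actin 3' to 5' ratio was 1.87 in diabetic replicate 3 and 1.77 in control replicate 3, the highest of their groups. Dhx36, Eef1a1 and Paqr3 had the pattern most like Gstt2 A over the 24 arrays (r = 0.84, 0.84 and 0.83) and were high in the same arrays. They were picked by that correlation, which includes these arrays, so their high values there are not separate evidence. Dhx36, an RNA helicase gene, measured 878.0, 614.3, 2150.1 and 563.4 in diabetic and 435.7, 458.6, 1787.6 and 653.0 in control arrays of day 28. Eef1a1, which encodes a translation elongation factor, measured 1000.6, 1010.3, 3073.5 and 869.7 against 632.4, 547.3, 2908.0 and 923.9. Neither they nor Paqr3 passed the test at day 42 (log2 changes 0.54, 0.49 and 0.32, adjusted p = 0.529, 0.618 and 0.768). The part of array quality in the Gstt2 A values was not tested.

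Gstt1, the other theta-class member on the array, was near the low end of the signals. It ranged from 72.4 to 167.1 in diabetic and from 61.7 to 80.9 in control arrays at day 3, from 47.3 to 78.1 and from 35.4 to 86.5 at day 28, and from 68.8 to 138.8 and from 64.8 to 98.1 at day 42. The groups overlapped at every day. In a fit with no filter its log2 changes were 0.75, 0.10 and 0.14 at days 3, 28 and 42 (adjusted p = 0.582, 1 and 0.942).

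**Figure D2:**
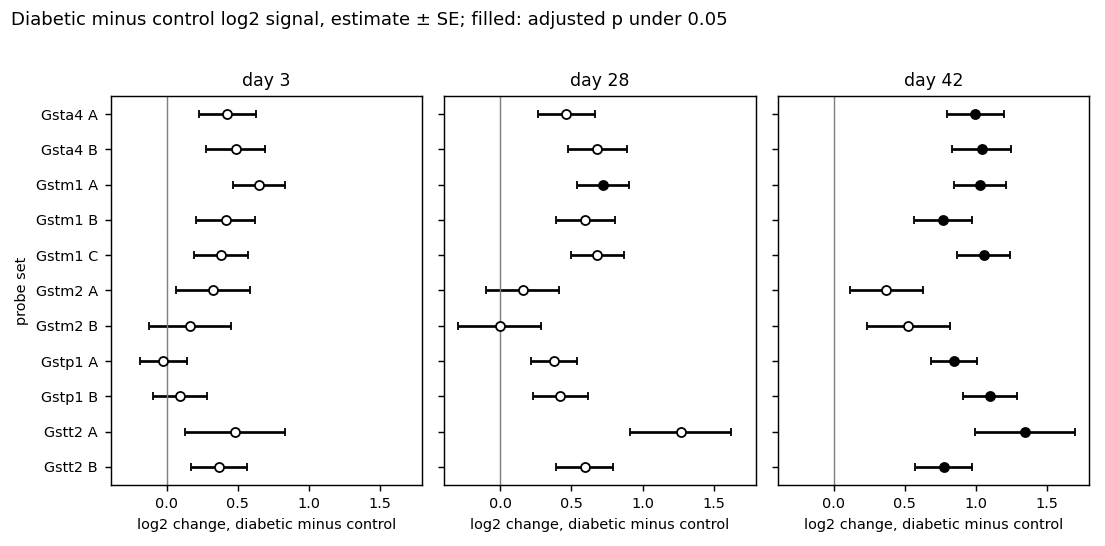
Diabetic minus control log2 change ± SE of the 11 tested probe sets at each day, from the limma fit over 24 arrays, filled where the adjusted p is under 0.05. At day 3 the points run from -0.02 to 0.65 and none is filled, at day 28 only Gstm1 A is filled, and at day 42 they run from 0.37 to 1.34 and all but the Gstm2 points are filled.

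The order of the 6 groups was read for each probe set. The diabetic group of day 42 had the highest mean log2 signal in 10 of the 11 tested probe sets, and in Gstt2 A the diabetic group of day 28 did. For Gstm1 A the means were 5169 ± 402 and 3301 ± 331 at day 3, 4670 ± 598 and 2968 ± 1070 at day 28, and 8313 ± 1134 and 4054 ± 136 at day 42 in diabetic and control animals (SD, n = 4 each). Its highest group lay 0.68 above the next on the log2 scale, beyond the larger SD of 0.19, while the diabetic groups of days 3 and 28 differed by 0.15, within an SD of 0.20. For Gstp1 A the means were 6256 ± 751 and 6338 ± 554 at day 3, 8262 ± 1557 and 6417 ± 1638 at day 28, and 12531 ± 2284 and 6905 ± 551 at day 42. Only the step of 0.60 between its highest group and the next exceeded the larger SD, and the other 5 groups formed a row in which no neighbours differed beyond their spread.

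For Gsta4 A the means were 1836 ± 441 and 1342 ± 139 at day 3, 2151 ± 567 and 1525 ± 148 at day 28, and 2765 ± 820 and 1343 ± 81.4 at day 42. The 3 diabetic groups came above the 3 control groups, and neighbours in this order differed by less than the larger SD, except that controls of day 28 lay 0.18 above those of day 42 (SD 0.14). For Gstt2 B, with 1227 ± 427 and 923 ± 203 at day 3, 1276 ± 128 and 849 ± 118 at day 28, and 1363 ± 151 and 799 ± 95.1 at day 42, the diabetic groups again came above the control groups, with no neighbours beyond their spread. Gstt2 A had its lowest levels at day 42 in both states, at 2257 ± 546 in diabetic and 891 ± 201 in control animals.

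Across the course, 7 of the 11 probe sets rose between day 3 and day 42 in diabetic animals (19.6% of all probe sets passed, 8.45% as higher), and in controls 2 rose and 1 fell (17.9% passed, 7.0% as higher and 10.9% as lower). Gstp1 A was 0.99 ± 0.16 and Gstp1 B 1.21 ± 0.19 higher at day 42 than at day 3 in diabetic animals on the log2 scale (adjusted p = 0.000176 and 0.000132), with 0.12 and 0.20 in controls (adjusted p = 0.629 and 0.484). Gstm1 A, B and C were higher by 0.68, 0.99 and 0.89 in diabetic animals (adjusted p = 0.0113, 0.00193 and 0.00208), and by 0.30, 0.64 and 0.21 in controls, where Gstm1 B passed (adjusted p = 0.0354). Gstm2 A was higher by 0.80 in diabetic animals (adjusted p = 0.0311) and by 0.76 in controls (adjusted p = 0.043), and both calls were lost with most single arrays left out. Gsta4 A was higher by 0.57 in diabetic animals (adjusted p = 0.0455) and by 0.01 in controls.

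Gstt2 A was lower at day 42 than at day 3. In controls its log2 signal fell by 1.68 ± 0.35 between day 3 and day 42 (adjusted p = 0.00219), and in diabetic animals the difference was -0.82 (adjusted p = 0.103). No scan day held arrays of more than 1 of the 3 time points, days 3 and 42 shared no chip lot (1 lot served days 28 and 42), and hexokinase ratios were higher at day 42, so time, batch and RNA quality cannot be told apart in these courses. The calls of Gstm1 B in controls ended whichever array was left out (0.60 to 0.66), those of Gstm2 A in controls with 7 of 8 arrays (0.62 to 1.00 over the 8, kept without control replicate 2 of day 42), those of Gsta4 A in diabetic animals with 6 of 8 (0.42 to 0.76, kept without diabetic replicate 3 of day 42 or 2 of day 3), and those of Gstm2 A in diabetic animals with 5 of 8 (0.68 to 1.02, kept without diabetic replicate 3 of day 42 or 1 or 4 of day 3). A fluidics station block also ended the calls in diabetic animals of Gsta4 A (0.51, adjusted p = 0.109) and Gstm2 A (0.58, adjusted p = 0.117). Median centring ended those of Gsta4 A in diabetic animals and of Gstm2 A in both states, and no filter or plain eBayes those of Gsta4 A in diabetic animals and Gstm2 A in controls, and a fit of only the groups compared that of Gsta4 A in diabetic animals. Between consecutive days 0 of the 11 diabetic effects differed (0.0% and 0.973% of all probe sets passed).

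At day 42 the arrays came from 1 scan day and 1 chip lot, and from 2 fluidics stations. On the station with 2 diabetic and 3 control arrays the 9 probe sets called at day 42 differed by 0.73 to 1.60 on the log2 scale. On that with 2 diabetic arrays and 1 control array they differed by 0.58 to 1.18. All these differences were positive, which was fixed in advance, since every diabetic array of day 42 lay above every control array for these 9. State and station nearly coincided earlier: at day 28, 3 of 4 diabetic arrays were on station 1 and all 4 control arrays on station 2, and at day 3 all 4 diabetic arrays were on station 2 and 3 of 4 control arrays on station 1. Differences within a scan day, station or lot that held both states therefore rest on few arrays, in some cases 1 diabetic against 1 control. At day 28 they were positive for all 9 of those probe sets, and at day 3 for 6 to 8 of the 9. The other 3 probe sets gave values of both signs, at day 28 between -0.27 for Gstm2 B and 0.43 for Gstt1, both in the lot with 1 array of each state. Probe sets of 1 gene moved closely together over the 24 arrays in Gsta4 (r = 0.92), Gstm2 (r = 0.93), Gstp1 (r = 0.93) and Gstm1 (r = 0.82 to 0.94), all of which share arrays and groups. Both Gstt2 probe sets gave r = 0.41, and r = 0.03 after group means were removed.

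Genes with the most similar patterns over the 24 arrays were taken for the brightest called probe set of each member gene. For Gstm1 A these were Rabac1 (r = 0.93), Vamp5 (r = 0.92) and Rpsa (r = 0.88). For Gstp1 A they were Rpsa (r = 0.88), Acot7 (r = 0.85) and Rpl19 (r = 0.82). For Gsta4 A they were Bex3 (r = 0.86), Rps3a (r = 0.85) and Rpl6 (r = 0.81). Rpsa, Rps3a, Rpl6 and Rpl19 encode ribosomal proteins, and Acot7 encodes an acyl-CoA thioesterase. All 9 of these probe sets rose at day 42, from 0.43 for Rps3a to 1.40 for Vamp5 on the log2 scale (adjusted p = 1.4e-06 to 0.0246). The genes were picked by correlation with members called higher at day 42, and the correlations share the group differences. Their rises are therefore not separate results.

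Among the other glutathione transferases, 8 of 10 genes on the array were tested, each by its brightest probe set. At day 42, 2 rose and 2 fell (11.4% of all probe sets passed), with a median log2 change of 0.16. At day 28, 1 rose and 1 fell (2.1% of all passed), while 0 passed at day 3 (0.934% of all). Mgst1, a membrane-bound microsomal enzyme, gave 7486.7, 7816.7, 8284.1 and 7832.8 in diabetic arrays of day 42, against 2093.6, 2792.7, 1834.1 and 1766.8 in controls. The groups were far apart, and the rise was 3.76-fold, a log2 change of 1.91 ± 0.21 (adjusted p = 7.92e-07), a larger estimate than that of any member probe set. Gstm5 A, of the mu class, gave 2344.6, 2502.1, 1677.1 and 2525.6 against 797.1, 754.6, 717.7 and 598.2, a log2 change of 1.65 ± 0.21 (adjusted p = 6.58e-06), and had risen by 0.96 at day 28 (adjusted p = 0.0122). Its promoter window holds the TGACNNNGC core at 113 and 53 bases before the start, and the window of Mgst1 holds no match. The core occurs in 12.1% of all promoter windows, so these matches are a description.

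Gsto1 A, of the omega class, went down to 3306.9, 3490.5, 2846.3 and 3367.9 in diabetic arrays of day 42, against 6149.7, 4938.5, 5651.6 and 5489.8 in controls. Its log2 signal fell by 0.77 ± 0.14 (adjusted p = 0.000451), and at day 28 it fell by 0.66 (adjusted p = 0.00999). Gstm7, a further mu-class gene whose window holds the core at 14 bases before the start, gave 1503.3, 1765.6, 739.4 and 1978.5 in diabetic and 2157.1, 2110.4, 2492.2 and 2303.9 in control arrays. It fell by 0.69 ± 0.22 at day 42 (adjusted p = 0.0421). At day 3 its means were 1220 ± 81.2 in diabetic and 1950 ± 475 in control animals (SD, n = 4 each). At day 28 they were 1220 ± 157 and 2009 ± 338. The groups were already apart at those earlier days, though Gstm7 passed the test at neither. Of the kappa enzyme Gstk1 the brighter probe set differed by -1.21 ± 0.51 at day 42 (adjusted p = 0.149), and the other fell by 0.64 ± 0.18 (adjusted p = 0.0213). Within the mu class the probe sets of Gstm1 and Gstm5 A rose, that of Gstm7 fell and those of Gstm2 passed at no day. The Gstm7 probe set, E01415cds_s_at, also has an identifier of the kind that can match several transcripts of a family. The promoter windows of Gsto1 and Gstk1 hold no match to the core. The diabetic effects of Mgst1 and Gstm5 A also differed between days 42 and 3, by 1.35 and 1.22 (adjusted p = 0.0161 and 0.0334).

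**Figure D3:**
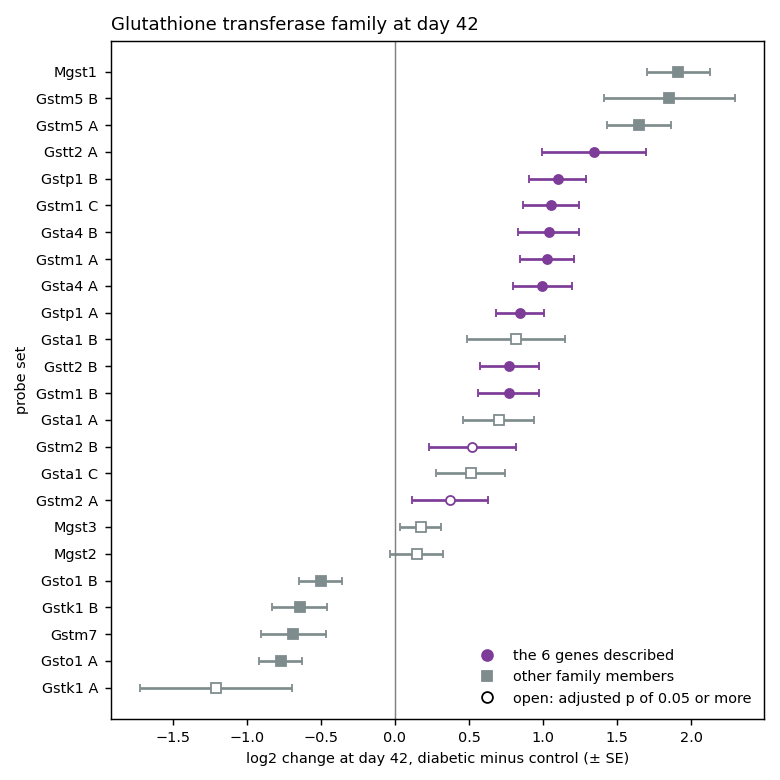
Diabetic minus control log2 change ± SE at day 42 for the 24 tested probe sets of the glutathione transferase family, sorted by value, circles for the 6 genes described and squares for others, filled where the adjusted p is under 0.05. Values run from -1.21 for Gstk1 A to 1.91 for Mgst1, and the 11 circles all lie above 0.

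Of 14 tested genes that make and recycle glutathione or encode its peroxidases, 0 passed at days 3 and 28, and at day 42, 1 rose and 2 fell (3 of 14, where 11.4% of all probe sets passed), with a median log2 change of -0.08. Idh1, which supplies NADPH in the cytosol, averaged 5125 ± 219 in diabetic and 2829 ± 318 in control animals at day 42 (SD, n = 4 each), a log2 change of 0.86 ± 0.18 (adjusted p = 0.00145). Me1, malic enzyme, a further NADPH source, averaged 2211 ± 221 in diabetic and 3181 ± 501 in control animals and fell by 0.52 ± 0.17 (adjusted p = 0.0476). Hagh, which releases glutathione in the glyoxalase pathway, averaged 1076 ± 378 against 1581 ± 242 and fell by 0.61 ± 0.20 (adjusted p = 0.046). Gclm, the modifier subunit of the first enzyme of glutathione synthesis, gave -0.11 ± 0.38, Gss, glutathione synthetase, gave -0.06 ± 0.19, and Gsr, glutathione reductase, gave 0.12 ± 0.17 (adjusted p = 0.915, 0.915 and 0.779).

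Of 14 tested genes for Nrf2 and its textbook targets outside the glutathione genes, 1 rose at each day and 0 fell (0.934%, 2.1% and 11.4% of all probe sets passed at days 3, 28 and 42), with median log2 changes of 0.22, 0.07 and 0.15 at days 3, 28 and 42. Ephx1, microsomal epoxide hydrolase, averaged 964 ± 147 in diabetic and 435 ± 57.0 in control animals at day 3, a log2 change of 1.14 ± 0.20 (adjusted p = 0.00362), with 0.35 and 0.37 at days 28 and 42 (adjusted p = 0.535 and 0.304). Cbr1, a carbonyl reductase that also acts on lipid aldehydes, averaged 6951 ± 2923 in diabetic and 1808 ± 469 in control animals at day 28, and 7033 ± 2485 and 2070 ± 593 at day 42. Its log2 changes were 1.87 ± 0.32 and 1.73 ± 0.32 (adjusted p = 0.00108 and 0.000411). Nfe2l2, which encodes Nrf2, gave 0.34 ± 0.25 at day 42, Nqo1, a quinone reductase, 0.20 ± 0.24, Txnrd1, thioredoxin reductase, 0.09 ± 0.12, and Hmox1, heme oxygenase, -0.41 ± 0.24 (adjusted p = 0.489, 0.698, 0.742 and 0.341). Of 4 tested genes for export of conjugates and the mercapturate path, 0 passed at any day, and at day 42 they ran from -0.19 for Anpep, an aminopeptidase, to 0.56 for Abcc3, a conjugate transporter.

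**Figure D4:**
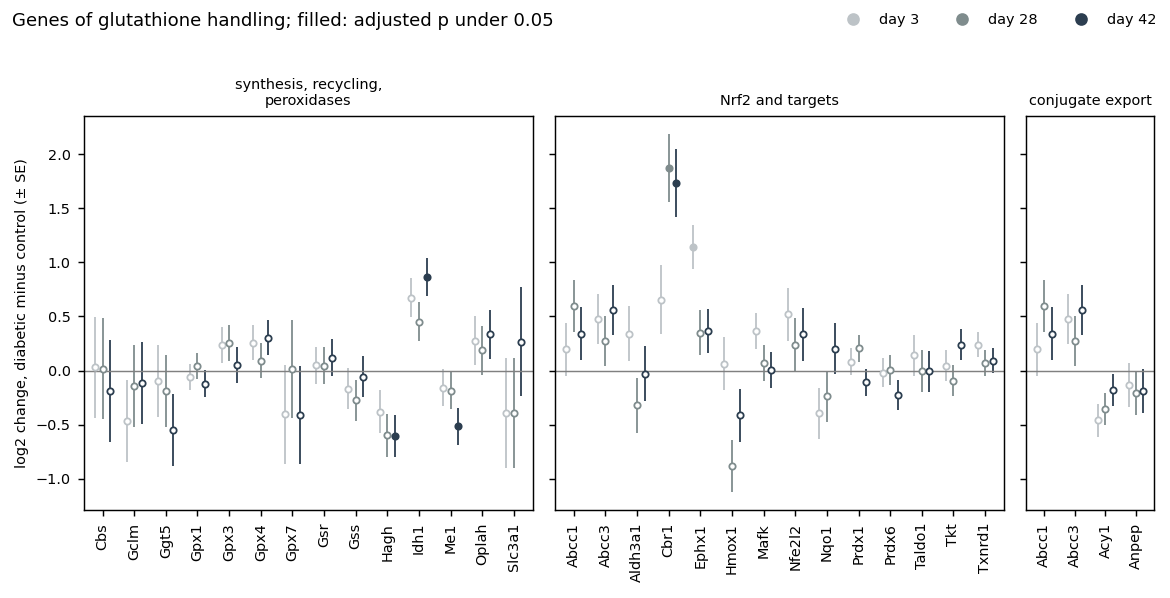
Diabetic minus control log2 change ± SE for genes of glutathione synthesis, recycling and peroxidases, for Nrf2 and its targets, and for conjugate export, with shades for days 3, 28 and 42 and filled points where the adjusted p is under 0.05. Cbr1 at days 28 and 42 and Ephx1 at day 3 stand out at 1.87, 1.73 and 1.14, and most other points lie near 0.

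Markers of other cell types moved at day 42 as well, where 11.4% of all probe sets passed. Of 6 tested fibroblast markers 5 fell, with log2 changes of -0.49 to -2.85. The summed signal of all 7 fibroblast markers on the array was 38289 to 50530 in diabetic arrays, against 84854 to 92515 in controls. Of 4 tested adipocyte markers 3 rose, Cfd by 1.82, Lipe by 0.91 and Fabp4 by 0.77. The summed signals of all 5 adipocyte markers on the array were 17480 to 25322 against 13808 to 15155. At day 3, where 0.934% of all probe sets passed, Lipe rose by 0.77. The sums of that day were 22418 to 28659 against 12212 to 18707. Of 4 endothelial markers Kdr rose by 1.83, with sums of 4391 to 5891 against 2987 to 4094. The tested markers of cardiomyocytes, smooth muscle and pericytes, macrophages, lymphocytes, erythroid cells and liver cells passed at no day, and no marker on the lists was below the floor in all arrays. The summed signal of the macrophage markers at day 42 was 4917 to 24615 in diabetic arrays (median 6272), against 5158 to 6726 in controls. The part of these cell types in the members' values was not tested.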

How the data were processed

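The deposited table holds an intensity per probe set and array, a MAS5 signal per the submitters' processing notes, with no version given in the sources used here. The mean after trimming 2% at each end was 1502.3 to 1503.0 on every array, and the median signal 321.4 to 442.9. Array run settings gave scan day, fluidics station and chip lot. All 24 value columns matched a sample.

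The 59 control probe sets were left out. Signals under 30.5 (the pooled 10th percentile) were set to it before taking log2, and the 5244 probe sets whose mean reached the 40th percentile (7.70) were tested. Group means were fitted to the 24 arrays by limma 3.58.1 under R 4.3.3 (eBayes with trend and robust options, 18 residual degrees of freedom), two-sided, with Benjamini-Hochberg adjustment over all probe sets within each of 8 comparisons and a threshold of 0.05. The pipeline was tested on simulated data. The number of arrays limits the precision, with a median SE of 0.214 (log2) within a day and 0.303 between days.

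Gene symbols came from the platform annotation in GEO, where 7006 probe sets have 1 symbol, 308 several and 1426 none. Promoters and gene order came from RefSeq tables of GRCr8. The members and lists were chosen with earlier results of these data known. Named are all members, the list genes past the threshold (up to 4 per list and day by smallest adjusted p, by the probe set of highest mean), and the 3 genes most correlated with each member gene. Letters A to C order a gene's probe sets by falling mean. Gsr, Gss, Gclm, Nfe2l2, Nqo1, Txnrd1 and Hmox1 are named besides, chosen after their values were seen. Means with SD are of signals, and log2 changes are of floored values. Alternatives covered the floor, filter, pseudocount, normalization, variance model, samples fitted, batch blocks, replicate block and leaving out each array. Replicates are separate animals per the labels. Python 3.11.15 was used with numpy 2.4.6, pandas 2.3.3 and matplotlib 3.10.9.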

Additional observations from a re-analysis of the deposited data

Results flagged for a closer look

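In 72 groups of 4 arrays (12 probe sets by 6 groups) 6 had an array whose log2 gap to the nearest other exceeded 0.829 of the group's range, and chance gives about 1 in 20, or 3.6 of 72. They were Gstm1 C in diabetic replicate 1 of day 3 (the highest, 1878.8), Gstm1 A in diabetic replicate 3 of day 28 (the lowest, 3783.0), Gstm2 A in control replicate 2 of day 42 (the lowest, 4735.2), Gstm2 B in control replicate 3 of day 3 (the lowest, 3658.6), Gstt2 A in diabetic replicate 4 of day 3 (the lowest, 3024.3) and Gstt2 A in diabetic replicate 3 of day 28 (the highest, 21270.2). The diabetic effect on Gstp1 A differed between day 42 and day 3 by an interaction test, by 0.87 on the log2 scale (adjusted p = 0.0498 in limma).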

How the results depend on the processing

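The count of 9 member probe sets called at day 42 held under 13 of 14 settings and was 8 to 9 with single arrays left out. With 1 probe set per gene it was 4 of 5, and the diabetic course then gave 4 (5 to 8 with single arrays left out), since fewer probe sets were tested. At day 3 the count was 1 with quantile normalization or with only the groups compared. At day 28 it was 0 with no filter, plain eBayes, only the groups compared or a station block, 2 with the 60th percentile filter, quantile normalization or median centring, 3 with a replicate block, and 0 to 2 with single arrays left out. An unchanged count of 1 is not always the same call: with a scan day or chip lot block it was Gstt2 A and not Gstm1 A. For the effect at day 42 minus day 3 it was 0 with no floor, no filter, median centring, plain eBayes or a scan day, station or chip lot block, 2 with the 60th percentile filter, quantile normalization or only the groups compared, and 0 to 2 with single arrays left out. For the control course it was 1 to 2 with single arrays left out. These causes were not tested. The direction of 4 uncalled changes near 0 reversed. Gstp1 A at day 3 was 0.00338 with quantile normalization, 0.0677 with a station block and 0.0107 with a chip lot block, and -0.0877 to 0.032 with single arrays left out. Gstp1 B at day 3 was -0.0156 to 0.162 with single arrays left out. Gstm2 A at day 28 was -0.17 with a station block and -0.0588 to 0.398 with single arrays left out, and Gstm2 B at day 28 was 0.035 with quantile normalization, 0.0758 with median centring and -0.25 to 0.34 with single arrays left out. Replicate numbers did not pair the animals (correlations of same-numbered deviations -0.19 to 0.40, 2 of 12 over 0.1), and the replicate block gave 0, 3 and 9 member calls at days 3, 28 and 42. Scan day and chip lot blocks could not be fitted to the courses within a state, since no scan day or lot spans days 3 and 42. A fluidics station block, which could be fitted, ended the calls of Gsta4 A and Gstm2 A in the diabetic course.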
